A study of Arabidopsis thaliana with 36 samples.

Results

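Gene expression of ground control plants from plate 6 was compared with that of ground control plants from plate 4, with no spaceflight sample on either side. The arrays were picked by plate and environment as labelled, and these plates and the gene lists were taken up with earlier results of the data known. Of 36 Affymetrix ATH1 arrays in the series, 14 hold ground control plants of these plates, 12 from dissected organs and 2 from whole plants. Arabidopsis thaliana seedlings were grown for 12 days on solid 0.5x MS medium in the ground unit of the Advanced Biological Research System (ABRS), inside a chamber at Kennedy Space Center that simulated the orbital environment, fixed in RNAlater and then dissected. Each organ array was made from a pool of plants, and each plate gave 2 pools for each of 3 organs, which are shoots (leaves cut at the petiole base), hypocotyls and roots. The plate 6 and plate 4 organ samples carry the same labels for everything but the plate: a plant mix of 60% WS and 40% Col-0, drawn from 3 reporter lines that carry green fluorescent protein (GFP). Adh::GFP is driven by the promoter of alcohol dehydrogenase, DR5::GFP by an artificial auxin-responsive promoter and UB::GFP by a constitutive viral promoter. The whole-plant arrays, 1 from plate 6 and 1 from plate 4, are labelled WS only. The question was which genes differ between plates in every organ when all plants stayed on the ground.

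Each side of the comparison is a single plate. Whatever differed between the plates, in position, in the plants sown on them or in handling, cannot be told apart from the plate number, and the p-values measure the spread between pools and arrays within these plates only. Both plates stood in the upper tier of the plant holder, and the study's methods give them the same light level.

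Many of the genes described here belong to the rapid response of plants to mechanical stimuli. Touch, bending or wounding of Arabidopsis switches on, within minutes, genes for calmodulin-like calcium sensors, WRKY, ERF, MYB and zinc finger transcription factors and cell wall enzymes, and the transcripts fade again soon afterwards. Wounding also starts the synthesis of jasmonate, a lipid hormone made from plastid fatty acids, which releases the factor MYC2 from its JAZ repressors. Several of the same early genes also answer to cold, salt, oxidants and microbial elicitors, so that their transcripts mark an early stress response without naming its trigger.

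The deposited signals were tested on the log2 scale for 22746 probe sets, with the organ as a factor and the plant pool as a random block, since same-numbered organ samples of a plate were taken as 1 pool of plants, which the labels do not state. With an adjusted p under 0.05 from limma as the threshold, 270 probe sets differed (1.19% of those tested), 213 of them higher on plate 6 (0.936%) and 57 lower (0.251%). The median log2 difference, plate 6 minus plate 4, was 1.26 among the higher and -0.89 among the lower ones. In 198 of the higher and 53 of the lower probe sets, the plate 6 arrays lay entirely on one side of the plate 4 arrays in each of the 3 organs, a pattern found for 439 higher (1.93%) and 395 lower (1.74%) of all probe sets tested. A difference of at least 2-fold in every organ was reached by 74 higher and 12 lower ones. The difference had its largest size in hypocotyls for 106 of the higher probe sets, in shoots for 77 and in roots for 30, with medians of 1.37 in shoots, 1.45 in hypocotyls and 0.87 in roots. Among the lower probe sets the medians were -0.88, -1.16 and -0.80 in the same order of organs.

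These counts depend on how the pool is treated. The estimated correlation within a pool was slightly negative, -0.11, which narrows the errors, and without the block 119 probe sets were higher (0.523%) and 14 lower (0.0615%), all of them among the 270. On pool means, 2 against 2, limma called 0 probe sets (smallest adjusted p = 0.236), a design in which known changes added to simulated arrays were not called either, so that this 0 says nothing on stability. There, 2311 probe sets (10.2%) had an unadjusted p under 0.05, among them all 213 higher and all 57 lower ones, and 178 higher and 27 lower ones had an unadjusted p under 0.01, beside 2.93% of all. The pool means average the same arrays that gave the 270 calls, so these counts are no separate check on them. Without the first plate 6 pool 41 probe sets were called higher and 6 lower, of which 41 and 2 were among the 270, and without the second 91 and 39, of which 81 and 8 were. Without the first plate 4 pool 141 were called higher and 33 lower, of which 115 and 10 were among the 270, and without the second 114 and 25, of which 98 and 11 were. The lower calls were thus mostly different probe sets when a pool was left out. Limma on a single organ called 0 probe sets, with an unadjusted p under 0.05 for 1987 in shoots, 2097 in hypocotyls and 1844 in roots. Without shoots 38 were called higher and 6 lower (35 and 4 of them among the 270), without hypocotyls 40 and 5 (38 and 1), and without roots 161 and 34 (119 and 8). On the simulated arrays, 40 probe sets were changed at each size. Without an added pool effect, the fit with the block called 67.5% to 100% of them by size, and also 25 unchanged probe sets. With one, it called 55% to 95% of them and 19 unchanged ones. The fit without the block called 62.5% to 100% and 14 unchanged ones without a pool effect, and 55% to 97.5% and 54 unchanged ones with one. A negative correlation within a pool, as estimated for these arrays, was not simulated.

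RRTF1 had the largest mean difference among the genes named by rule. This gene, for a redox-responsive AP2/ERF transcription factor, had signals of 2168 and 2578 in plate 6 shoots against 267 and 144 in plate 4 shoots. Its signals were 1659 and 1379 in plate 6 hypocotyls against 89.7 and 95.3 in plate 4 hypocotyls, and 428 and 468 in plate 6 roots against 1.96 and 31.9 in plate 4 roots. Every plate 6 array lay above every plate 4 array of its organ, and the lowest plate 6 signal, in roots, was still above the highest of plate 4, in shoots. The mean log2 difference was 4.48 (SE 0.55, adjusted p = 0.00383, limma). The size for roots rests on signals at the bottom of the scale, since the 25th percentile of the plate 4 root arrays was 38.0 to 38.2. In whole plants RRTF1 had 290 on plate 6 and 11.8 on plate 4.

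WRKY40, a WRKY transcription factor induced by pathogens and wounding, showed the same separation at well-measured signals. It had 5150 and 3739 in plate 6 shoots against 698 and 613 in plate 4 shoots, 1752 and 1416 in plate 6 hypocotyls against 166 and 147 in plate 4 hypocotyls, and 634 and 705 in plate 6 roots against 163 and 125 in plate 4 roots. The groups did not overlap in any organ, and hypocotyls differed most. Its mean log2 difference was 2.77 (SE 0.17, adjusted p = 9.99e-05, limma), and the whole plants had 3297 on plate 6 and 611 on plate 4.

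CML37, a calmodulin-like calcium sensor, had the smallest adjusted p among the named genes. Its signals were 482 and 401 in plate 6 shoots against 74.1 and 64.9 in plate 4 shoots, 369 and 292 in plate 6 hypocotyls against 54.4 and 57.6 in plate 4 hypocotyls, and 127 and 127 in plate 6 roots against 32.0 and 17.5 in plate 4 roots. The log2 difference was 2.66 in shoots, 2.55 in hypocotyls and 2.42 in roots, where the plate 4 signals lay under the 25th percentile of their arrays, and the mean was 2.55 (SE 0.14, adjusted p = 8.89e-05, limma). MYB15, a MYB factor of cold and defence responses, had 859 and 515 in plate 6 shoots against 47.3 and 57.2 in plate 4 shoots, and its mean log2 difference was 2.82 (SE 0.21, adjusted p = 0.000283, limma). In its other organs the plates were as cleanly apart, by 2.56 in hypocotyls and 2.23 in roots.

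ORA47, an AP2/ERF activator of jasmonate synthesis genes, had 2183 and 2782 in plate 6 shoots against 633 and 378 in plate 4 shoots, 1326 and 1089 in plate 6 hypocotyls against 134 and 147 in plate 4 hypocotyls, and 685 and 755 in plate 6 roots against 48.3 and 43.7 in plate 4 roots. Its difference was smallest in shoots and largest in roots, with a mean of 3.13 (SE 0.22, adjusted p = 0.000251, limma). The whole plants did not show it to that extent, with 158 on plate 6 and 137 on plate 4. FBS1, an F-box protein induced by stress, had a mean log2 difference of 2.57 (SE 0.17, adjusted p = 0.000146, limma). Its plate 6 signals ran from 872 to 1115 in shoots, from 1356 to 1525 in hypocotyls and from 360 to 411 in roots, against 152 to 165, 161 to 168 and 84.5 to 117 in the plate 4 organs.

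The remaining largest differences were in genes known here mainly by locus. AT1G19210, which the array annotation describes as a DNA-binding factor of transcription, differed by 3.92, AT3G02840 (annotated with a response to ozone) by 3.05, AT4G27654 by 3.00, AT4G29780 by 2.71, AT3G10930 by 2.58 and AT5G64870 by 2.58. All 6 passed with and without the block, and their groups were separate in every organ, as the naming rule asks. AT1G67860 did not hold as well: its difference of 2.70 (SE 0.53, adjusted p = 0.0497) was 0.59 in shoots, 4.09 in hypocotyls and 3.44 in roots, it missed the threshold without the block (adjusted p = 0.137, limma), and in whole plants its difference was -0.45. The largest 15 also hold JAZ8 and CBF1, described with their pathways below. Of these 15 genes, 14 also passed without the block, 14 were above 0 in whole plants and 11 of them by at least 2-fold.

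**Figure D1:**
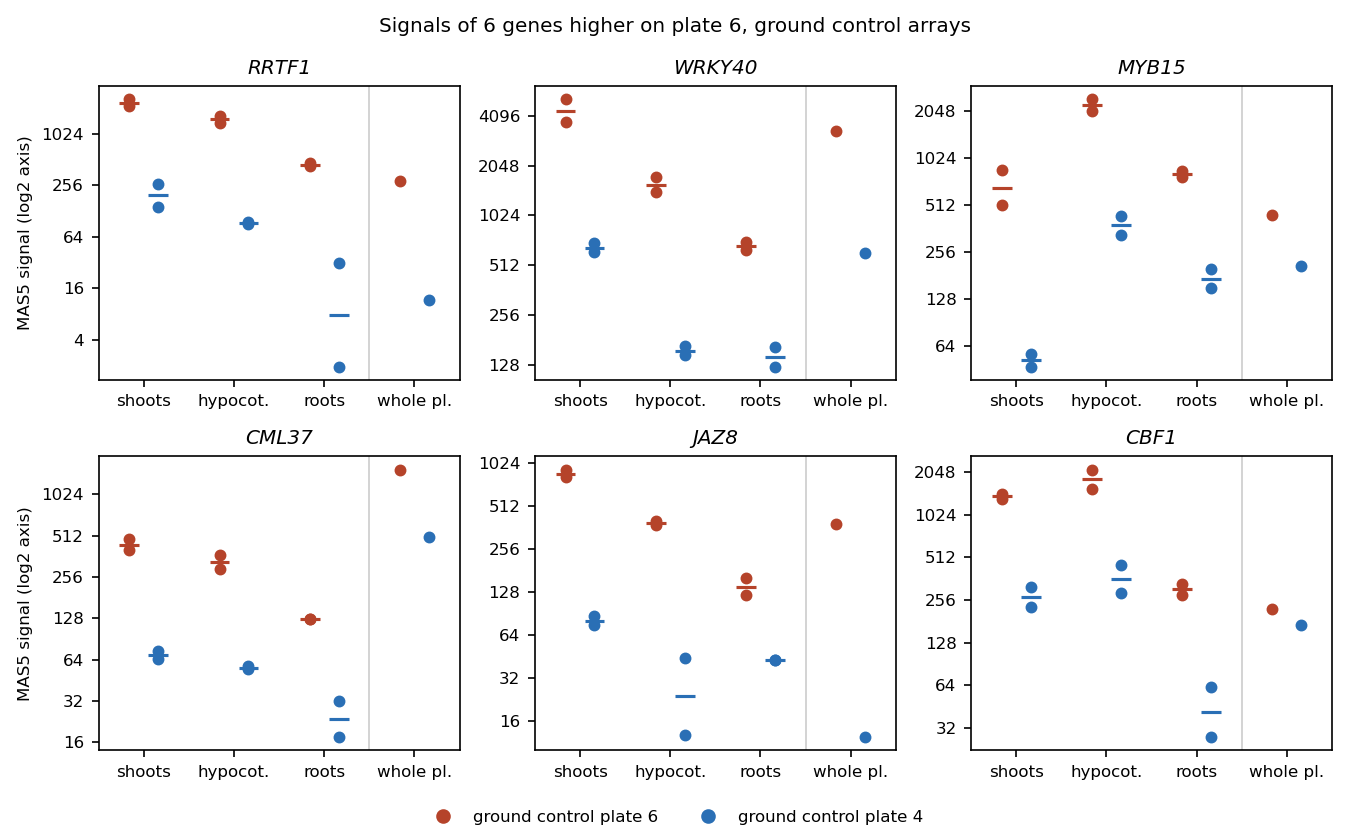
Signals of genes higher on plate 6, 1 panel a gene, on a log axis, with shoots, hypocotyls, roots and whole plants along the x axis. Points are single arrays and short lines the mean on the log scale, with plate 6 left of plate 4 in each organ. The WRKY40 points of hypocotyls are 1752 and 1416 on plate 6 and 166 and 147 on plate 4.

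Of the 25 lists, that of touch and rapid wound response genes had the highest median difference. Of 23 measured members, 18 were higher on plate 6 and 0 lower, beside 0.936% and 0.251% of all probe sets. In 17 of these 18, all but ZAT6, the plates did not overlap in any organ. That pattern was found for 1.93% of all probe sets and for 198 of the 213 called higher, so the call nearly implies it. Without the block 14 of them passed, beside 0.523% of all probe sets, and without the first plate 6 pool 10 did. The median log2 difference of the list was 1.47, against -0.03 over all probe sets, and was 1.63 in shoots, 1.65 in hypocotyls and 1.33 in roots. The called members span the classes of the early response. The calcium sensors CML38 (2.04) and TCH2 (0.89) were higher, as were the zinc finger factors ZAT10 (1.84), SZF1 (1.88), ZAT12 (1.44) and ZAT6 (1.45). Among the ERF family, ERF6 (1.84), ERF104 (1.41), ERF2 (1.32), ERF1A (1.26) and ERF5 (1.23) were higher, and so were the drought- and heat-responsive factor DREB2A (1.68) and the mRNA deadenylase CAF1a (1.63).

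TCH4, a xyloglucan endotransglucosylase of the cell wall and a classic touch gene, had 16852 and 12643 in plate 6 shoots against 6665 and 6664 in plate 4 shoots. It had 8495 and 8841 in plate 6 hypocotyls against 2902 and 2137 in plate 4 hypocotyls, and 2441 and 1843 in plate 6 roots against 626 and 575 in plate 4 roots. Roots had the lowest level on each plate, and the plates stayed apart within each organ, by a mean log2 difference of 1.58 (adjusted p = 0.000792, limma). The 5 members that missed the threshold were EXO (0.72, adjusted p = 0.0501), WRKY53 (0.77), TCH3 (0.75), WRKY33 (1.01) and CML39 (1.47), a probe set of low signal. TCH3 and WRKY33 had differences of 1.18 and 1.54 in shoots but of -0.09 and -0.05 in roots.

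The mean log2 level of the 23 touch genes was 11.04 and 10.54 in plate 6 shoots against 9.04 and 8.88 in plate 4 shoots. It was 10.16 and 10.32 in plate 6 hypocotyls against 8.61 and 8.39 in plate 4 hypocotyls, and 9.53 and 9.58 in plate 6 roots against 8.07 and 8.04 in plate 4 roots. The gap between the plates was in each organ wider than that between pools of a plate. The only other ground plate, plate 2, with 1 pool, lay between them in every organ, at 10.22 in shoots, 9.91 in hypocotyls and 8.76 in roots.

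Genes of the jasmonate pathway were higher on plate 6 in 11 of 20 measured cases and lower in 0, beside 0.936% and 0.251% of all probe sets. The list median was 0.94. Without the block 4 of the 11 passed, beside 0.523% of all probe sets. Without the first or the second plate 6 pool 1 and 0 passed, without the first or the second plate 4 pool 3 and 2, and without shoots or without hypocotyls 0. The called members cover synthesis and signalling. In synthesis, the lipoxygenases LOX3 (2.1) and LOX4 (2.06), allene oxide synthase AOS (0.93), allene oxide cyclase AOC3 (1.24) and the reductase OPR3 (0.73) were higher. In signalling, MYC2 (1.43) and the repressor genes JAZ1 (1.2), JAZ5 (1.45), JAZ7 (2.46), JAZ8 (3.05) and JAZ9 (0.96) were higher, and JAZ genes are themselves MYC2 targets.

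JAZ8 had signals of 915 and 810 in plate 6 shoots against 86.7 and 74.9 in plate 4 shoots, 378 and 400 in plate 6 hypocotyls against 44.4 and 12.8 in plate 4 hypocotyls, and 121 and 160 in plate 6 roots against 42.7 and 42.6 in plate 4 roots. Its groups were apart in every organ and least so in roots, with a mean log2 difference of 3.05 (SE 0.35, adjusted p = 0.0029, limma). LOX4 had 1356 and 1244 in plate 6 shoots against 280 and 192 in plate 4 shoots, but 124 and 172 in plate 6 roots against 68.7 and 103 in plate 4 roots. All 11 called members had their smallest difference in roots, and the list median was 1.03 in shoots, 0.97 in hypocotyls and 0.59 in roots. MYC2 had 3605 and 3740 in plate 6 shoots against 1013 and 847 in plate 4 shoots, and 1389 and 1939 in plate 6 roots against 933 and 928 in plate 4 roots. The members that missed the threshold include the receptor gene COI1 (-0.26), the conjugating enzyme gene JAR1 (-0.13), LOX2 (0.17), JAZ2 (0.40), JAZ10 (0.51) and the defensin PDF1.2 (1.08).

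**Figure D2:**
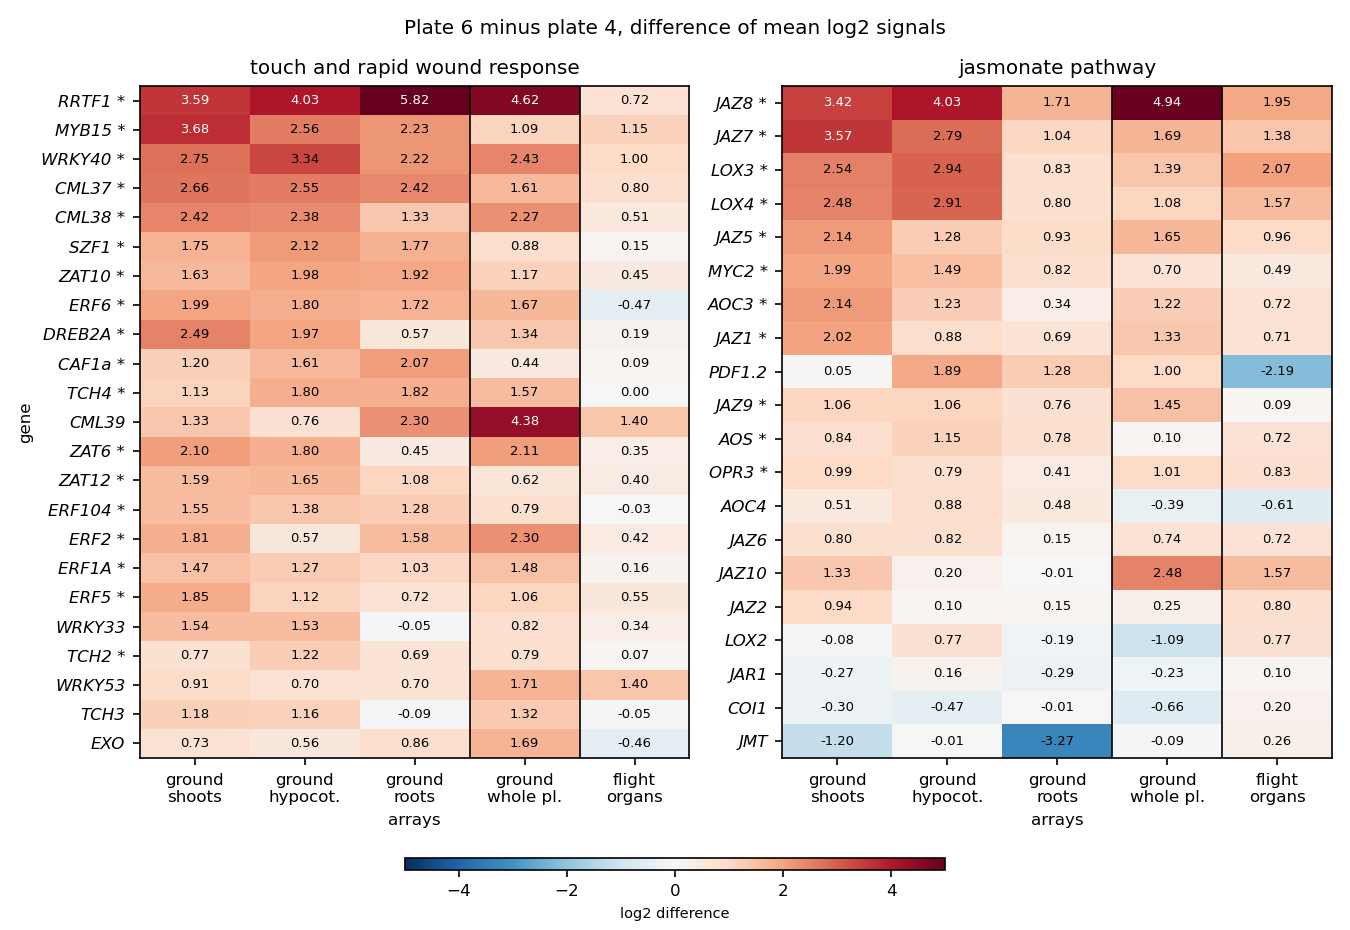
Log2 differences, plate 6 minus plate 4, of the touch and jasmonate genes, with genes down the page and ground shoots, hypocotyls, roots, whole plants and the flight organs as columns. Red is above 0, blue below, and an asterisk marks genes that passed over the ground organs, such as RRTF1 with 3.59, 4.03 and 5.82 in the organs, 4.62 in whole plants and 0.72 in flight.

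Of 12 genes of the cold regulon, 3 were higher and 0 lower, beside 0.936% and 0.251% of all probe sets. These 3 are DREB transcription factors at its head. CBF1 had signals of 1322 and 1443 in plate 6 shoots against 228 and 317 in plate 4 shoots, 2130 and 1557 in plate 6 hypocotyls against 456 and 285 in plate 4 hypocotyls, and 334 and 277 in plate 6 roots against 27.4 and 62.4 in plate 4 roots. The plates were separate in every organ, with a mean log2 difference of 2.53 (SE 0.20, adjusted p = 0.000354, limma). CBF2 differed by 2.17 (adjusted p = 0.00405) and DDF1, a low-signal probe set, by 4.13 (adjusted p = 0.000878), while CBF3 missed the threshold at 1.15 (adjusted p = 0.0619, limma). The cold-protection genes that CBF factors switch on in the cold were not called: COR15A had a difference of 0.05, COR47 of 0.20 and RD29A of -0.14. The median of the list was 0.27.

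The other lists had few calls or none, to be read beside 0.936% higher and 0.251% lower of all probe sets. WRKY70, a regulator of salicylate responses, was the only one of 21 salicylate and pathogen defence genes called (1.12, adjusted p = 0.00383). SRO5 (2.11) of 16 hypoxia genes and the heat shock factor HSFB2A (0.75) of 20 heat shock genes were higher as well, and both missed the threshold without the block (adjusted p = 0.137 and 0.0582, limma). The expansin EXPA15 was the only called member, lower, of 28 expansins and xyloglucan endotransglucosylases, and the peroxidase RCI3 the only one, lower, of 16 root markers. No member was called among 19 genes of the circadian clock, 17 of abscisic acid and drought, 16 of phosphate starvation, 19 of iron deficiency, 18 of the nitrate response, 14 of sulfur starvation, 26 of glucosinolates, 20 of flavonoids, 30 of photosynthesis, 15 of light signalling, 22 of auxin, 12 of root hairs, 17 of mitosis, 13 of senescence, 26 known to vary between accessions, 16 of seed maturation or 12 used as reference genes. The median of the reference genes was 0.01.

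**Figure D3:**
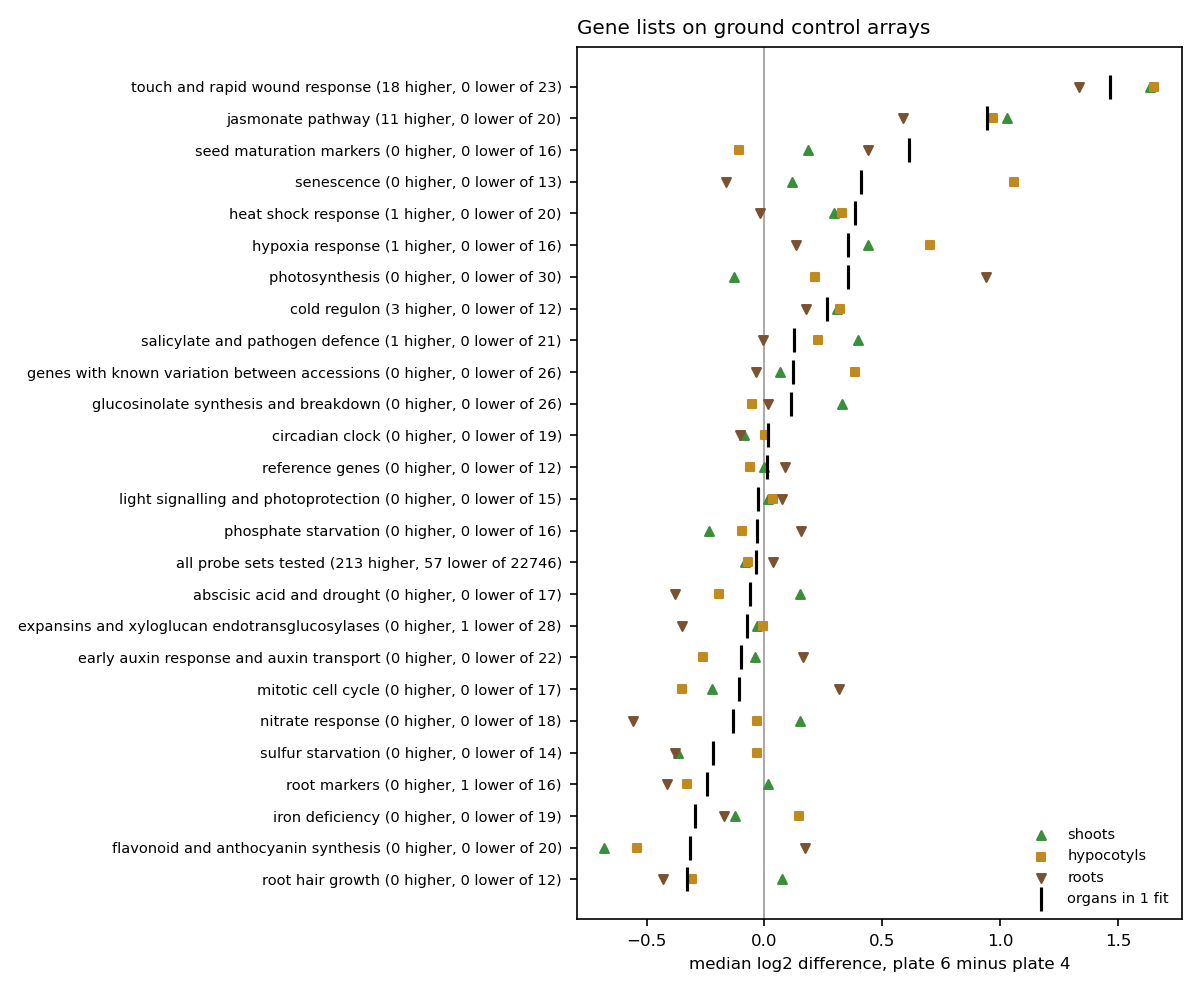
Median log2 difference, plate 6 minus plate 4, of 25 gene lists and of all probe sets, with lists down the page and their counts of calls beside their names. Black bars are the medians over the ground organs in 1 fit and coloured points those of single organs, with the touch genes (1.47) and the jasmonate genes (0.94) farthest to the right.

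Photosynthesis genes showed a shift without a call. All 30 measured members had a positive difference, beside 10264 of all 22746 probe sets, with a median of 0.35. The shift was in roots (0.94) rather than in shoots (-0.13) or hypocotyls (0.22). In whole plants 3 of the 30 were above 0, beside 49.2% of all probe sets, with a median of -0.34, and in flight the median was 0.06. Their summed signal was 32518 to 38483 in plate 6 roots against 17461 to 17536 in plate 4 roots, and that of the root markers 40605 to 48144 in plate 6 roots against 53367 to 53813 in plate 4 roots. The ratio of 3' to 5' probe signals of the GAPDH control, which grows as RNA is degraded or copied incompletely, was 9.05 to 10.5 in plate 6 roots against 6.82 to 8.84 in plate 4 roots. In hypocotyls the photosynthesis sum was 232689 to 239144 on plate 6 against 180667 to 210590 on plate 4, and the root marker sum 14339 to 16346 on plate 6 against 16902 to 24746 on plate 4. In both organs these sums moved with the plate without overlap, and their part in the values of roots and hypocotyls given here was not tested. In a pool of cells, fewer cells of a type and less RNA in each cell cannot be told apart. In shoots the photosynthesis sums overlapped, at 666208 to 703079 on plate 6 and 699305 to 784744 on plate 4. The GAPDH ratio did not overlap in shoots either, at 3.99 to 4.04 on plate 6 against 4.2 to 5.35 on plate 4, and its part in the shoot values was not tested. In hypocotyls it overlapped, at 2.79 to 3.56 on plate 6 against 3.37 to 4.77 on plate 4. The same ratio of the actin control was far higher and overlapped in all 3 organs. It was 27.1 to 75.5 in plate 6 shoots against 28.5 to 35.4 in plate 4 shoots, 43.6 to 81.0 against 38.4 to 83.0 in hypocotyls, and 51.1 to 81.8 against 52.0 to 98.8 in roots.

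Genes lower on plate 6 were fewer, and no list held more than 1 of them. XCP1 and TED6, of the water-conducting tissue, and RNS3 were among them. XCP1, a cysteine protease of xylem vessels, had 958 and 1060 in plate 6 hypocotyls against 3755 and 2173 in plate 4 hypocotyls, and 435 and 402 in plate 6 roots against 944 and 858 in plate 4 roots. In shoots its plate 6 signals of 264 and 221 lay just under the 382 and 273 of plate 4, and the mean log2 difference was -1.01 (SE 0.19, adjusted p = 0.0381, limma). TED6, a membrane protein of secondary wall formation in vessels, had 1164 and 1409 in plate 6 hypocotyls against 3509 and 3241 in plate 4 hypocotyls, and a mean log2 difference of -0.92 (SE 0.18, adjusted p = 0.0434, limma). RNS3, a ribonuclease, had 319 and 375 in plate 6 hypocotyls against 1523 and 1135 in plate 4 hypocotyls, 291 and 167 in plate 6 roots against 657 and 488 in plate 4 roots, and 66.6 and 65.1 in plate 6 shoots against 161 and 122 in plate 4 shoots. All of these groups were separate and hypocotyls differed most, as the mean of -1.46 for RNS3 (SE 0.18, adjusted p = 0.00383, limma) includes -1.93 in hypocotyls. XCP1 and TED6 missed the threshold without the block (adjusted p = 0.0961 and 0.114), and RNS3 passed it (adjusted p = 0.0113, limma).

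EXPA15, an expansin that loosens cell walls, had 328 and 325 in plate 6 shoots against 635 and 604 in plate 4 shoots, 995 and 777 in plate 6 hypocotyls against 1993 and 1528 in plate 4 hypocotyls, and 3028 and 2304 in plate 6 roots against 4329 and 3441 in plate 4 roots. The difference was present at every level of the gene, with a mean of -0.82 (SE 0.13, adjusted p = 0.0157, limma). RCI3, a peroxidase of roots, had 3028 and 4548 in plate 6 roots against 6469 and 6919 in plate 4 roots, and a mean log2 difference of -0.96 (SE 0.15, adjusted p = 0.0156, limma). It is itself one of the root markers whose sum was lower in plate 6 roots.

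The transcript of atpA, the plastid gene for a subunit of the ATP synthase, had 877 and 964 in plate 6 shoots against 3883 and 3203 in plate 4 shoots, with 9427 in the plate 2 pool. Its mean log2 difference was -1.44 (SE 0.15, adjusted p = 0.00161, limma). In whole plants it had 15711 on plate 6 and 17090 on plate 4, far above any ground organ array of these plates, so its level moved more between kinds of sample than between plates. The other named lower genes were AT2G14095 (-2.24), the glutathione transferase GSTU22 (-1.54), AT4G33810 (annotated with carbohydrate metabolism, -1.25), the membrane protein DMP2 (-1.19), AT1G47400 (-1.14), the ABC transporter ABCG20 (-1.13), AT5G23750 (annotated as DNA-binding, -0.86), OEP6 of the plastid envelope (-0.83) and AT3G26460 (annotated with defence, -0.82). The sizes for AT2G14095 and GSTU22 rest on signals near the bottom of the scale. AT2G14095 had 2.17 and 3.90 in plate 6 shoots against 25.5 and 42.7 in plate 4 shoots, and GSTU22 had 10.7 and 15.9 in plate 6 hypocotyls against 71.2 and 78.5 in plate 4 hypocotyls. Of these 15 lower genes, 6 passed without the block.

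**Figure D4:**
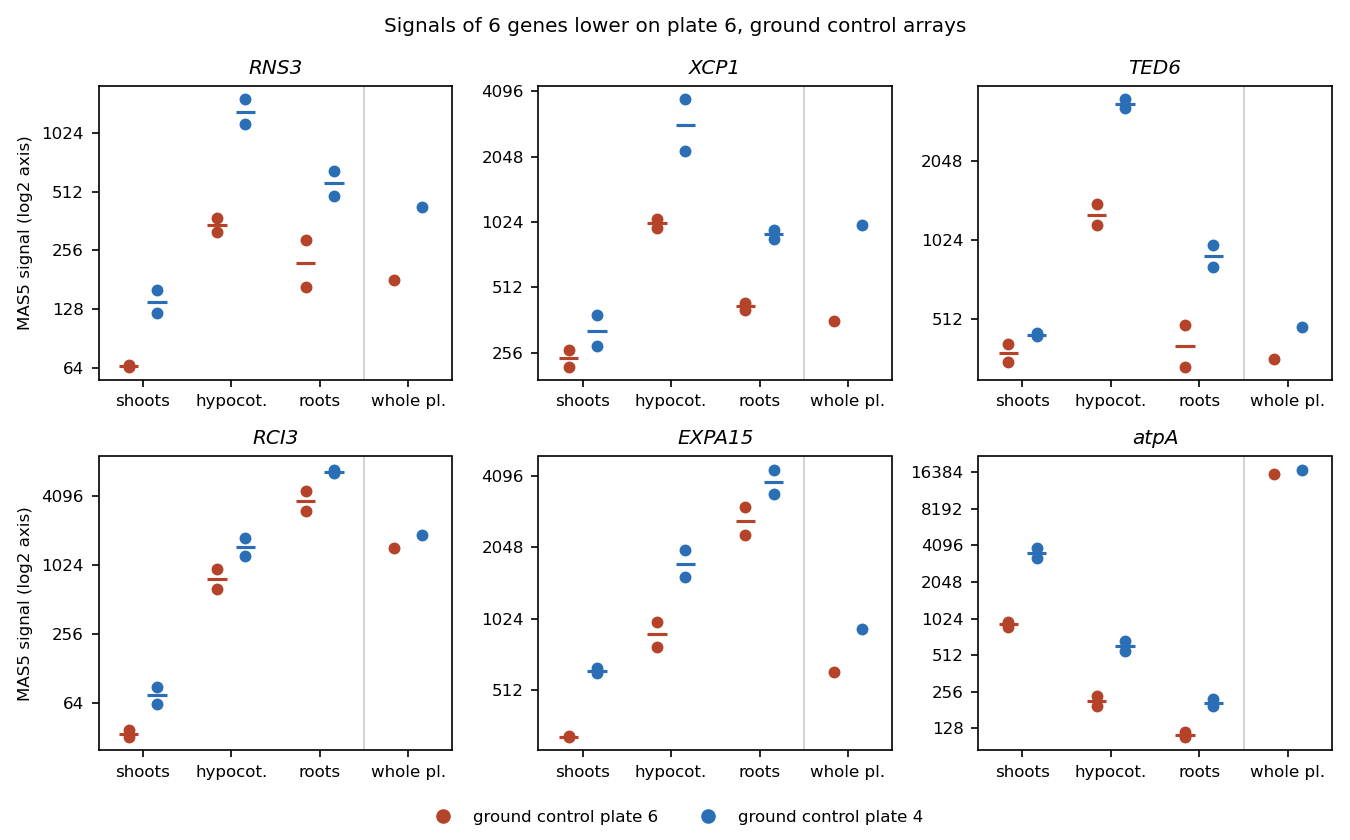
Signals of genes lower on plate 6, 1 panel a gene, on a log axis, with shoots, hypocotyls, roots and whole plants along the x axis. Points are single arrays and short lines the mean on the log scale, with plate 6 left of plate 4. RNS3 in hypocotyls stands at 319 and 375 on plate 6 and 1523 and 1135 on plate 4.

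The whole-plant arrays, made from other samples of the same plates, gave 1 array a side and no test. Of the 213 probe sets higher in the organs, 191 (89.7%) were above 0 in whole plants, against 49.2% of all probe sets, and 97 were at least 2-fold higher (11.6% of all). Only 3 of them were at least 2-fold lower. The touch genes had a median of 1.48 there, and all 23 were above 0. Of the 57 lower probe sets, 31 (54.4%) were below 0 in whole plants, against 50.8% of all, and 9 were at least 2-fold lower (11% of all), so that their direction was shared about as often as that of any probe set. Of the 15 named lower genes, 11 were below 0, 3 of them by at least 2-fold, and XCP1 had 357 on plate 6 and 996 on plate 4.

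A formal test of whether the plate difference varied between organs called 4 probe sets (0.0176%), 3 of which have low signals. The fourth is AT4G11100, whose log2 difference was -0.12 in shoots, 0.33 in hypocotyls and 3.43 in roots (adjusted p = 0.0314, limma). Its root signals were 42.1 and 38.7 on plate 6 and 4.29 and 3.25 on plate 4, under the 25th percentile of those arrays. With any ground pool left out, 0 passed by limma, and at an unadjusted p under 0.05 over all pools 2235 did. The medians by organ given above are therefore not shown to differ gene by gene, and the range between organs for RRTF1 had an adjusted p of 0.764.

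In flight, where the same plate numbers stood for other plants, plate 6 against plate 4 gave 305 higher (1.34%) and 147 lower (0.646%) probe sets by limma on 12 arrays. Without the block these were 65 and 27, and without the first plate 6 flight pool 0 and 1. Of the 213 genes higher on the ground, 37 were also higher in flight, which is 17.37% of the ground list and 12.1% of the flight list. Of the 57 lower, 3 were also lower, which is 5.26% of the ground list and 2.04% of the flight list. The test of the difference between environments passed for 375 probe sets (1.65%), 214 (0.941%) with a larger value on the ground and 161 (0.708%) with a smaller one. Without the block 131 passed, and without the first plate 6 or the second plate 4 ground pool 97 or 103. Among the 213 higher genes 92 had a larger ground difference by this test, and among the 57 lower genes 9 had a smaller one. Both sets were chosen by their ground difference, which is 1 side of this test, so the choice itself tilts these counts that way.

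The lists were not tested against each other in this respect. Of the 18 touch genes called on the ground, 3 were called in flight, WRKY40, MYB15 (1.15) and CML37 (0.80), beside 1.34% of all probe sets higher there. By the test, 15 of the 18 had a ground difference larger than the flight difference, beside 0.941% of all probe sets and 92 of the 213 higher ones. The count of 15 is tilted by the choice of these genes on the ground values. TCH4 had a flight difference of 0.00 and ERF6 of -0.47. Of the 11 jasmonate genes called on the ground, 8 were also called in flight, beside 1.34% of all probe sets higher there. Among the 11, 0 had a difference that passed the test between environments, which does not show that the environments were alike. The median of ground minus flight was 1.39 over the touch list and 0.34 over the jasmonate list. LOX3 differed by 2.07 in flight, JAZ8 by 1.95 and LOX4 by 1.57. CBF1 differed by 0.01 in flight. All 3 called genes of the cold regulon had a larger difference on the ground by the test, beside 0.941% of all probe sets. They too were chosen by their ground values.

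The levels of the touch genes in all samples place the ground plates. Their mean log2 level in flight was 11.24 and 11.28 in plate 6 shoots against 11.03 and 10.92 in plate 4 shoots, 11.01 and 10.56 in plate 6 hypocotyls against 10.57 and 10.65 in plate 4 hypocotyls, and 11.09 and 11.30 in plate 6 roots against 10.50 and 10.44 in plate 4 roots. In every organ the ground plate 4 arrays were the lowest of all 10 arrays. A difference of flight minus ground therefore depended on the plate: it was 0.47 on plate 6 and 2.01 on plate 4 in shoots, 0.55 and 2.1 in hypocotyls and 1.64 and 2.41 in roots. On plate 2, with 1 array a side, it was -0.26 in shoots, -0.50 in hypocotyls and 0.77 in roots.

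**Figure D5:**
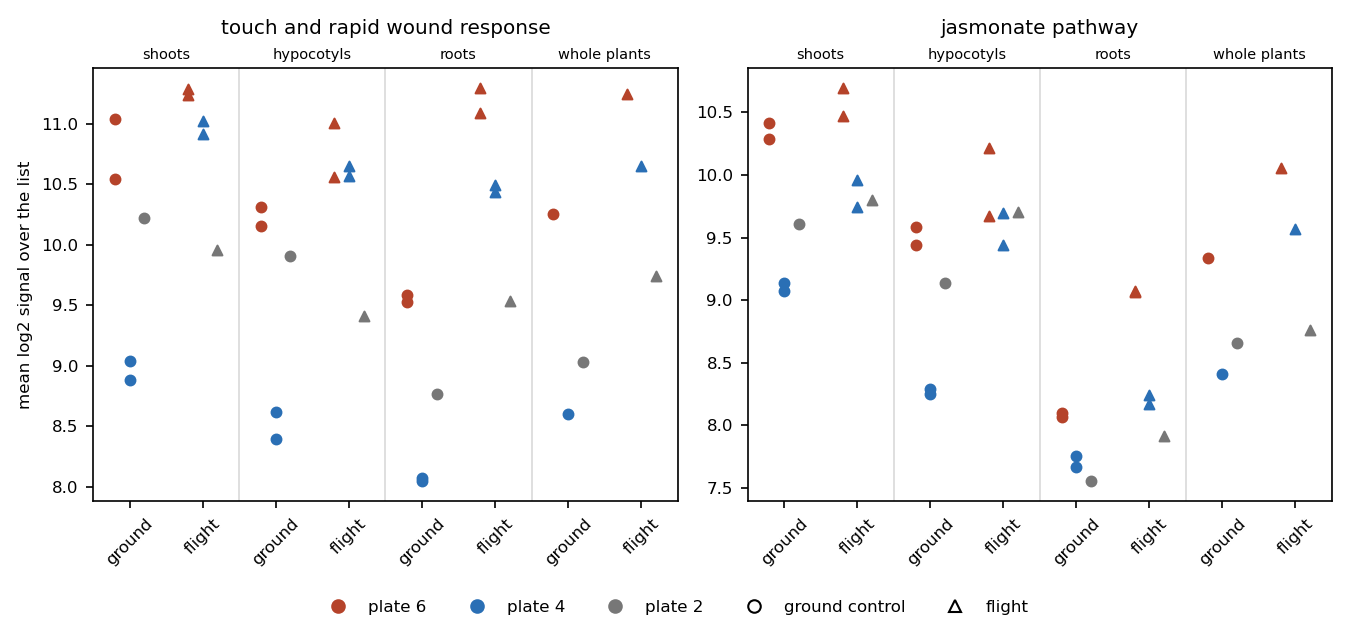
Mean log2 signal of the touch genes and of the jasmonate genes on each array, by organ, environment and plate, with plates 6, 4 and 2 from left to right. Circles are ground control arrays and triangles flight arrays. The ground plate 4 arrays have the lowest touch levels of each organ, such as 8.07 and 8.04 in roots, against 9.53 and 9.58 in ground plate 6 roots.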

How the data were processed

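The deposited signal intensities are on a linear scale. The authors made them by running the MAS5 algorithm of Affymetrix Expression Console, whose version is not given in the sources used here, on scans of ATH1 arrays, hybridised with RNA that had been amplified with the NuGEN Ovation Pico kit. Over the 12 organ arrays the trimmed mean was 500.0 to 500.1 and the median 165.0 to 191.0. Precision is limited by how few arrays there are and, for dim probe sets, by background. The 64 control probe sets were left out of 22810. Dim probe sets stayed in the fit; low-signal means the 40% with the lowest mean signal over the 12 arrays, under 122.7. Log2 signals were fitted with limma 3.58.1 in R 4.3.3 (organ as factor, plant pool as random block through duplicateCorrelation, Benjamini-Hochberg adjustment). Whether same-numbered organ samples are the same plants is not stated on the labels. Organs of same-numbered pools had correlated deviations of -0.09 to 0.04 over probe sets that are not low-signal. The authors also deposited tables of their own comparisons (p-values, q-values, fold changes, counts of present calls), which were not used.

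Genes are named by rule: the 15 higher and 15 lower genes with the largest mean difference among called, well-measured probe sets of 1 gene whose plates do not overlap in any organ, up to 4 members of each of 25 lists with the smallest p, and 5 genes of the plate by organ test. CBF3 and the genes under other observations, like the remaining members of the touch and jasmonate lists, were named after their values were seen. The plates, lists and members were chosen with earlier results of these data known. A list gene is represented by its probe set of highest mean signal; of 22746 probe sets tested, 819 hold several genes and 22091 have a locus in the reference table. Alternatives covered scaling, an offset of 36.6 before log2, low signals, the pool, the replicate number, limma settings, the methods' t-test on pool means, and each pool or organ left out. The tests were first run on simulated data with known changes.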

Additional observations from a re-analysis of the deposited data

Results flagged for a closer look

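The plate difference varied between organs, by limma's test of the organ by plate terms, for 4 probe sets, of which AT4G11100 (adjusted p = 0.0314) is the only one above the low-signal limit. Its difference was seen in roots, at signals of 42.1 and 38.7 on plate 6 and 4.29 and 3.25 on plate 4.

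The plate difference was not the same on the ground and in flight for 375 probe sets by the limma test of environment by plate. Among the genes named above, the ground difference exceeded the flight difference by 3.76 on the log2 scale for RRTF1, 3.13 for AT1G19210, 2.74 for FBS1, 2.51 for CBF1, 2.49 for ORA47, 2.41 for AT4G27654, 2.31 for AT3G02840, 2.31 for AT5G64870, 2.14 for AT4G29780, 2.02 for AT3G10930, 1.76 for WRKY40, 1.75 for CML37 and 1.67 for MYB15. For the expansin gene EXPA15 the ground difference lay below the flight difference, by -0.81. These genes were named for a large ground difference, which is itself 1 side of the test. In WRKY40 the ground plate 4 arrays stood apart from the other 3 groups of shoots of plates 6 and 4. The gene had 5150 and 3739 in ground plate 6 shoots against 698 and 613 in ground plate 4 shoots. In flight it had 6228 and 7235 in plate 6 shoots against 3757 and 4188 in plate 4 shoots. The plate 2 shoots, 1 array a side, lay between, at 2150 on the ground and 1250 in flight. EXPA15 had 328 and 325 in ground plate 6 shoots against 635 and 604 in ground plate 4 shoots, and in flight 414 and 316 in plate 6 shoots against 245 and 302 in plate 4 shoots, so that the order of the plates was opposite there. In flight hypocotyls it had 713 and 848 on plate 6 against 1126 and 966 on plate 4, in the same order as on the ground, and in flight roots 2083 and 1854 on plate 6 against 2063 and 1909 on plate 4, which overlap.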

How the results depend on the processing

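Over the ground organs, 213 probe sets were higher and 57 lower on plate 6. These counts were 203 and 37 after quantile normalization, 409 and 212 with an offset before log2, 467 and 283 over probe sets above the low-signal limit, 466 and 219 with trend and robust settings, 119 and 14 with no block for the pool, and 0 and 0 on pool means, a fit that also called none of the changes added to simulated arrays. The methods' t-test gave 121 and 57 at its unadjusted threshold, of which only 79 and 7 were among the 213 and 57 above. After Benjamini-Hochberg it gave 0 and 0. Of the same 213 and 57, 199 and 37 were called over probe sets above the low-signal limit. With trend and robust settings 210 and 44 of them were called. With 1 pool left out, 41 to 141 were higher and 6 to 39 lower. Leaving out shoots gave 38 and 6, leaving out hypocotyls 40 and 5, leaving out roots 161 and 34, and shoots, hypocotyls or roots alone 0 and 0.

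Of the touch genes, 18 passed, with 10 to 14 when 1 pool was left out, 8 without shoots, 8 without hypocotyls, 11 at the t-test's unadjusted threshold, and 0 on pool means, in a single organ or by the adjusted t-test. Of the jasmonate genes, 11 passed, with 0 to 3 when 1 pool was left out, 7 without roots, 4 with no block, 3 at the unadjusted threshold, and 0 without shoots, without hypocotyls, on pool means, in a single organ or by the adjusted t-test.

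The share of higher probe sets above 0 in whole plants, 89.7%, was 83.9% with an offset, 82.2% without low signals, 95.8% with no block, 84.5% with the replicate block, 80.9% with trend and robust settings, 89.4% to 97.6% with 1 pool left out, 97.4% without shoots and 97.5% without hypocotyls. Probe sets whose plates do not overlap in any organ numbered 90 higher and 34 lower when a log2 difference of at least 1 was asked in every organ.

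The test between organs called 4 probe sets, 12 with an offset and 0 with any 1 pool left out. In flight, 305 were higher and 147 lower, against 762 and 458 with an offset, 65 and 27 with no block, 0 and 0 on pool means, and 0 to 169 and 1 to 60 with 1 pool left out. The test between environments called 375, against 645 with an offset, 131 with no block, 0 on pool means and 97 to 346 with 1 ground pool left out. Leaving out pools in the last 3 tests, and dropping their block, was chosen after seeing the data. AT4G11100, 1.22 over the organs, was -0.12 in shoots alone.

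The labels number the replicates of each plate alike. Same-numbered replicates of the plates deviated with correlations of -0.07 to 0.03, so that the numbers do not establish pairs. With a replicate block 330 probe sets were higher and 173 lower on the ground, and 796 and 498 in flight. Of 48 named genes compared over these alternatives, AT4G11100 alone changed sign. Many of the 48 had been picked for separate plates in every organ, which fixes their sign in single organs. On pool means, and in shoots, hypocotyls or roots alone, 41 of the 48 kept their sign but lost their call.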

Other observations

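Other early response genes among the 213 higher probe sets, chosen after their values were seen, fall into a few groups. In ethylene synthesis and signalling, ACS6, an enzyme that makes the ethylene precursor, differed by 1.39 (adjusted p = 0.00151, limma), and the repressors ERF4 and ERF11 by 1.08 and 1.55. In ubiquitin-mediated turnover, the E3 ligases PUB23 (1.65), RDUF1 (1.48) and RDUF2 (1.33) were higher on plate 6. In immune and stress signalling, the kinase MKK9 (0.86), the kinase substrate MKS1 (0.88), the receptor kinase LYK5 (1.27), which takes part in chitin perception, and the membrane-tethered factor NAC062 (1.18) were higher, as were WRKY46 (1.40), WRKY22 (1.21) and BAP1 (2.07), an inhibitor of cell death. CYP707A3, which breaks down abscisic acid, was higher by 1.67, while 0 of 17 abscisic acid and drought genes were called. PUB23, MKK9 and CYP707A3 missed the threshold without the block (adjusted p = 0.066, 0.0558 and 0.102, limma). RDUF1 differed by 1.48 on the ground against -0.04 in flight, the factor MYB77 by 1.2 against -0.08 and CYP707A3 by 1.67 against -0.13. Not all of these genes were near 0 in flight, with ERF11 at 0.79, WRKY22 at 0.63 and MKS1 at 0.53. AIB, another higher probe set, differed by 1.18 on the ground and 1.33 in flight. For ERF11, WRKY22, MKS1 and AIB the test between environments was not passed.

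For xylem, 17 genes of vessel formation were picked after the values of RNS3, XCP1 and TED6 had been seen, so that they carry no test. Of these, 16 had a negative difference, while 10264 of all 22746 probe sets had a positive one. Among the 17, 4 were called lower, beside 0.251% of all probe sets, but 3 of the 4 are the genes that prompted the choice. The median was -0.58, with -0.22 in shoots, -1.13 in hypocotyls and -0.50 in roots. In whole plants 14 of the 17 were below 0, beside 50.8% of all, with a median of -0.37, and in flight the median was -0.17.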
